A study of Mus musculus with 3 samples.

Results

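Binding of the transcription factors FLI1 and RUNX1 was read at 9 tetraspanin genes of the megakaryocyte and platelet surface, Cd9, Cd63, Cd81, Cd82, Cd151, Cd37, Tspan9, Tspan32 and Tspan33, out of 22367 protein-coding gene records of the mouse annotation. The genes were taken by name as tetraspanins of that surface. The data came from 1 chromatin immunoprecipitation (ChIP-seq) library for FLI1, 1 for RUNX1 and 1 input library of unprecipitated chromatin, all from mature megakaryocytes. These cells were grown from embryonic day 15 livers of wild-type CD1 mice for 5 days with thrombopoietin, the growth factor of the megakaryocyte lineage, and cleared of other blood lineages with antibodies and albumin gradients. No knockout, transgene or drug was involved, and the groups differed in the antibody, raised against Fli-1, against Runx1, or absent. The input reads were also shorter than the ChIP reads (34 against 50 bp), and the sources differ on how the input chromatin was cut, so that ratios over input carry this difference too. Each ChIP library was pooled from at least 3 precipitates, so there was 1 library per antibody and no replicate error could be measured.

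Tetraspanins are small proteins that cross the membrane several times and gather integrins, immunoglobulin-like proteins and proteases into membrane microdomains. On platelets they surround the fibrinogen receptor (the integrin made from Itga2b and Itgb3) and the collagen receptor GPVI, and they act on spreading, granule release and the strength of platelet responses. FLI1 is an ETS family factor that binds sites built on GGAA, RUNX1 binds sites built on TGTGGT, and both are needed for megakaryocyte maturation.

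The libraries differed in depth, with 62946422 FLI1 reads, 3973856 RUNX1 reads and 21745220 input reads used, at 1 read per position and strand outside chromosome M. The RUNX1 file holds far fewer reads than the study lists for this library and may be a subset of it. Low RUNX1 counts and RUNX1 bins that were not called therefore describe this file. Whether they hold for the whole RUNX1 library was not tested. Counts are given as reads and as reads per 1000000 reads of the library (rpm), and a ratio is ChIP rpm over input rpm with an exact (Clopper-Pearson) 95% interval. These intervals cover counting error only. Copies at the same position and strand were counted once, but without molecular identifiers the remaining reads are not shown to be independent molecules. Of the markers of cell types that the culture could hold, 6 of 8 megakaryocyte genes had FLI1 at 2-fold or more over input within 2 kb of the gene start, as did 1 of 5 erythroid genes (Epor), 1 of 5 granulocyte and monocyte genes (Mpo) and 0 of 4 hepatocyte genes, beside 25.2% of all protein-coding genes. Ppbp and Vwf were the megakaryocyte genes below 2-fold, at 1.27 and 1.24.

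Sequences of 8 FLI1 regions at these genes are printed first, because the results below refer back to them. They were chosen to show the tallest intronic region, the letters named below and 2 windows without such letters, and they are not the regions ranked by height. Each is the forward strand of mm9 within 50 bp of a summit, the base covered by the most FLI1 reads in a called region. Capitals mark letters searched on both strands. For ETS factors these were CAGGAAG and CCGGAAG, and likewise each of them with a final A in place of the final G. For RUNX factors they were TGTGGT as well as the form TGCGGT, for the core of the NF-E2 site TGAGTCA with its reverse complement TGACTCA, and for GATA factors AGATAA as well as the form TGATAA. The NF-E2 forms overlap by construction and counted as 1. On the opposite strand the ETS letters read CTTCCTG where the forward form is CAGGAAG. The distance in each name is counted from the 5′ end of the gene in the direction of transcription.
Tspan32 -169 bp, chr7:150190732-150190832: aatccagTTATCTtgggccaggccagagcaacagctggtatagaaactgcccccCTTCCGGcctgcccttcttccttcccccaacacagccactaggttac
Tspan32 +1508 bp, intron, chr7:150192409-150192509: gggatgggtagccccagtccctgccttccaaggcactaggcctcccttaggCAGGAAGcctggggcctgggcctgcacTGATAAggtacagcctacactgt
Cd151 +1712 bp, intron, chr7:148654923-148655023: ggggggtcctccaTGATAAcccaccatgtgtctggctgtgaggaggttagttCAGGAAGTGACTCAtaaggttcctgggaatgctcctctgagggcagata
Cd81 -9777 bp, intergenic, chr7:150228817-150228917: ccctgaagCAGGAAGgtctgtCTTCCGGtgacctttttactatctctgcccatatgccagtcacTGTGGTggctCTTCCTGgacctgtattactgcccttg
Cd81 +5829 bp, intron, chr7:150244423-150244523: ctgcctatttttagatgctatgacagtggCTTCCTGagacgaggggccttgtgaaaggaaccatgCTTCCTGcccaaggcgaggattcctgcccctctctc
Tspan9 +40791 bp, intron, chr6:128052771-128052871: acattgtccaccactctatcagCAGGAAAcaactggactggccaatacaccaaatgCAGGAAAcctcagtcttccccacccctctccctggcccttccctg
Cd9 +13567 bp, intron, chr6:125431192-125431292: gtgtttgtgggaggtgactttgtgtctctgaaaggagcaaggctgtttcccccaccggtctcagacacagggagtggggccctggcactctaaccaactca
Cd82 +1126 bp, intron, chr2:93302121-93302221: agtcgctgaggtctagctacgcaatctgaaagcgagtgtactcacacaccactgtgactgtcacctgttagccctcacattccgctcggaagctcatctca
The Cd9 and Cd82 windows are shown because they held none of the letters searched. The Cd37 region, also without them, lies in a UTR and is not printed.

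Within 2 kb of the gene starts, FLI1 was highest at Tspan32, a haematopoietic tetraspanin that associates with the fibrinogen receptor, and lowest at Tspan33, which escorts the protease ADAM10. RUNX1 was below 2-fold of input at all 9 genes in these windows, whereas with 1 kb to either side it was 2.59 times input at Cd9 and 2.81 times at Tspan32, so that 2 of 9 genes were then called. The share of all genes called at 1 kb was not computed, so that count has no background. With 2-fold over input as the call, FLI1 was called at 2 of 9 genes, Tspan32 and Cd63, beside 25.2% of all protein-coding genes. RUNX1 was called at 0 of 9, beside 16.7% of all genes, and both factors together at 0 of 9, beside 10.9%. Neither count is far from its background share, so neither sets these genes apart from others. No p-value belongs to these counts, since the design has no replicates. The background covers the 21877 gene records with input reads in the window.

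Tspan32 starts at chr7:150190951 on the forward strand, and its window held 624 FLI1, 22 RUNX1 and 68 input reads, which is 9.91, 5.54 and 3.13 rpm. FLI1 stood at 3.17 times input (2.47 to 4.13) and RUNX1 at 1.77 times (1.04 to 2.90). In the 2 kb windows only Tspan32 had its whole FLI1 interval above 2-fold and the whole RUNX1 interval above input. Over all annotated starts of the gene neither held, with 2.11 (1.76 to 2.55) for FLI1 and 1.39 (0.929 to 2.02) for RUNX1. In 500-bp steps, its FLI1 reads rose from 21 in the step that ends 500 bp before the start to 180 in the next. They stayed at 63 to 133 over the following 2 kb. The signal was thus not a single peak, and FLI1 was called in separate regions with summits at -169 bp and 1508 bp, printed above.

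Cd63, a granule membrane protein that reaches the surface of activated platelets, had 197 FLI1, 10 RUNX1 and 29 input reads. Its ratios were 2.35 for FLI1 (1.58 to 3.60) and 1.89 for RUNX1 (0.820 to 3.98). The call rests on the reference, since 29 input reads were the fewest of the 9 windows and none of its 500-bp steps passed 43 FLI1 reads. With windows of 1 kb or 5 kb to either side the FLI1 ratio of Cd63 was 1.43 and 1.38, below the call.

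Next in order came 3 genes whose FLI1 intervals lay above input and still included 2-fold. Cd151, a partner of laminin-binding integrins, had 355 FLI1, 15 RUNX1 and 64 input reads and a FLI1 ratio of 1.92 (1.47 to 2.54), which was 1.27 (1.06 to 1.53) with 5 kb to either side. Cd37, a tetraspanin of leukocytes, had 326, 15 and 62 reads and a ratio of 1.82 (1.38 to 2.42), which was 3.00 (2.02 to 4.61) with 1 kb to either side. Cd82, known for restraining cell migration, had 259, 14 and 55 reads and a ratio of 1.63 (1.21 to 2.22), which was 1.21 (0.788 to 1.91) with 1 kb to either side and 1.09 (0.926 to 1.30) over all annotated starts, no longer above input. In each of these genes the FLI1 reads were highest in 1 step of 500 bp on the transcribed side, with 118 reads from 1.5 to 2 kb in Cd151, 139 reads in the first 500 bp of Cd37 and 119 reads from 1 to 1.5 kb in Cd82. Cd151 also had 53, 44 and 46 reads beside 6, 9 and 5 input reads in the steps before that, and Cd82 had 52 beside 4. The RUNX1 ratios were 1.28 (0.679 to 2.28) for Cd151, 1.32 (0.699 to 2.36) for Cd37 and 1.39 (0.715 to 2.54) for Cd82, none of which could be told from input in these windows. Over all annotated starts RUNX1 at Cd37 was 1.67 (1.09 to 2.50), above input.

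The remaining genes had FLI1 intervals that included input and ended below 2-fold in these windows. Other windows put some of them above input, with 1.58 (1.02 to 2.54) for Tspan9 at 1 kb to either side, and 1.41 (1.13 to 1.77) for Cd9 and 1.32 (1.10 to 1.58) for Cd81 at 5 kb. Tspan9, which associates with GPVI, had 203 FLI1, 8 RUNX1 and 55 input reads, a FLI1 ratio of 1.28 (0.942 to 1.75) and a RUNX1 ratio of 0.796 (0.327 to 1.68). Cd9, an abundant protein of the platelet surface, had 162, 12 and 48 reads and ratios of 1.17 (0.840 to 1.65) and 1.37 (0.661 to 2.61). Cd81, a widely expressed tetraspanin, had 203, 8 and 61 reads and ratios of 1.15 (0.860 to 1.56) and 0.718 (0.297 to 1.51). These starts held little FLI1 although, as described below, the introns of Cd9, Cd81 and Tspan9 held called FLI1 bins. Tspan33 had 169, 4 and 52 reads, with ratios of 1.12 (0.818 to 1.56) and 0.421 (0.111 to 1.14).

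**Figure D1:**
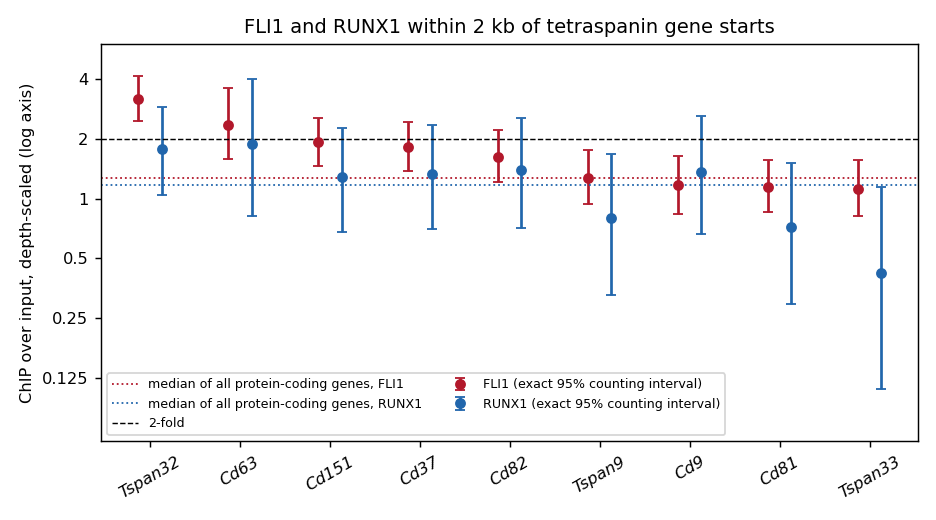
ChIP over input within 2 kb of each gene start, on a log axis, for FLI1 and RUNX1, with exact 95% counting intervals, the 2-fold line dashed and the medians of all protein-coding genes dotted. FLI1 falls from 3.17 at Tspan32 to 1.12 at Tspan33, and the RUNX1 intervals are wider throughout.

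In the order of FLI1 ratios, as in that of RUNX1 ratios, every pair of neighbours had overlapping intervals. For FLI1, the interval of Tspan32 lay above those of Cd37 and all genes after it, and that of Cd63 above those of Cd81 and Tspan33. For RUNX1 the intervals of all 9 genes overlapped, so their order is not resolved. The median of the 9 genes was 1.63 for FLI1 and 1.32 for RUNX1, beside 1.26 and 1.17 over all protein-coding genes. Tspan32 stood at the 92.4 percentile of FLI1 ratios and Cd63 at the 82.0 percentile, whereas Tspan33, Cd81 and Cd9 lay between the 42.6 and the 45.0 percentile. For RUNX1, the upper bound fell below 2-fold in Tspan9, Cd81 and Tspan33, and in the other 6 genes 2-fold lay within the interval, so that such a level was not distinguishable at this depth. Pooled over the 9 windows, 2498 FLI1, 108 RUNX1 and 494 input reads gave 1.75 (1.59 to 1.93) for FLI1 and 1.20 (0.962 to 1.48) for RUNX1. The pooled values over all protein-coding genes were 1.50 and 1.28. Tspan32 alone gave 624 of the 2498 FLI1 reads, and these intervals do not cover the spread among genes.

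Among other tetraspanins FLI1 was called as often by number but in a longer list. Of 22 further family genes (23 gene records), FLI1 was called at Cd53, a leukocyte tetraspanin, with 369 FLI1, 4 RUNX1 and 42 input reads and a ratio of 3.04 (2.20 to 4.28), and at Tspan14, another escort of ADAM10, with 278, 13 and 46 reads and a ratio of 2.09 (1.52 to 2.92). The third highest was Tspan6, at 1.93, and RUNX1 was called at 0 of them, beside the same 25.2% and 16.7% of all genes. Their medians were 1.23 for FLI1 and 0.835 for RUNX1. Of the 6 genes of the group that binds ADAM10, which includes Tspan33, FLI1 was called at Tspan14 alone and RUNX1 at none.

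The genes of proteins that tetraspanins associate with had medians of 1.82 for FLI1 and 1.46 for RUNX1. Of 11 partner genes, FLI1 was called at 4 and RUNX1 at 3, and both at Itgb1 and Adam10, beside 25.2%, 16.7% and 10.9% of all genes. Itga2b had 701 FLI1 and 44 input reads and a FLI1 ratio of 5.50 (4.06 to 7.64). Adam10 had 324 FLI1, 13 RUNX1 and 23 input reads, with ratios of 4.87 and 3.09 (1.44 to 6.37 for RUNX1). Itgb1 had 375, 17 and 28 reads, with ratios of 4.63 and 3.32 (1.71 to 6.29 for RUNX1). Itgb3, at a FLI1 ratio of 2.59, and Igsf8, at a RUNX1 ratio of 2.23 (0.998 to 4.64) from 11 RUNX1 and 27 input reads, made up the other calls. The RUNX1 interval of Igsf8 includes input. Adam10, Itgb1 and Igsf8 had fewer input reads than the 29 of Cd63, so their RUNX1 calls also rest on a low reference. These lists were not tested against each other.

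Beyond the starts, each gene was followed over its body with 20 kb to either side, in 400-bp bins. A bin was called with at least 5 reads and at 4-fold or more of the highest of the genome-wide mean, the input in that bin and the mean input over 13 bins, all scaled to depth. The 9 territories covered 1700 bins, of which 19 were called for FLI1 (1.12%, beside 0.318% of all bins with reads), 11 for RUNX1 (0.647%, beside 0.3%) and 3 for both (beside 0.0373%). Over the territories of all protein-coding genes, the closer reference, the shares were 0.488% for FLI1, 0.359% for RUNX1 and 0.0595% for both. At 5 reads a RUNX1 bin is already 7.48 times the library mean of 0.668 reads per bin, while 4 times the FLI1 mean is 42.3 reads, so a RUNX1 bin that was not called is not shown to be free of the factor. With the bins started 200 bp later, 29 FLI1 bins and 5 shared bins were called, and when at least 10 reads were asked for, 0 RUNX1 bins and 0 shared bins were left. The shares above do not apply to these settings, for which none was computed.

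FLI1 bins lay in the territories of 8 of 9 genes, all but Tspan33, where 54.1% of all protein-coding genes had 1. RUNX1 bins lay in 7 of 9, all but Cd37 and Tspan33, beside 46.5%, and bins called for both lay in 2 of 9, Cd63 and Tspan32, beside 14.1%. The RUNX1 count depends on the grid. With the bins started 200 bp later, Cd9 and Cd151 had 0 RUNX1 bins, and the other genes with RUNX1 bins kept at least 1. No background share was computed for that grid. Territories grow with the gene, and Tspan9 with 553 bins was far longer than Cd63 or Cd151 with 110. By share of bins, Tspan32 led with 2.92% called for FLI1 and 2.19% for RUNX1, followed for FLI1 by Cd81 at 2.90%, Cd9 at 2.15% and Cd151 at 1.82%. Tspan9 had 0.362% for either factor. These counts and shares include bins at starts of other genes in the territories of Cd63, Cd81 and Cd151, as given below. Over whole territories, called bins included, FLI1 over input ran from 0.746 in Cd82 to 1.43 in Cd9. Tspan32 and Cd81 lie 33094 bp apart on chromosome 7, so their territories overlap and 1 RUNX1 bin belongs to both.

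**Figure D2:**
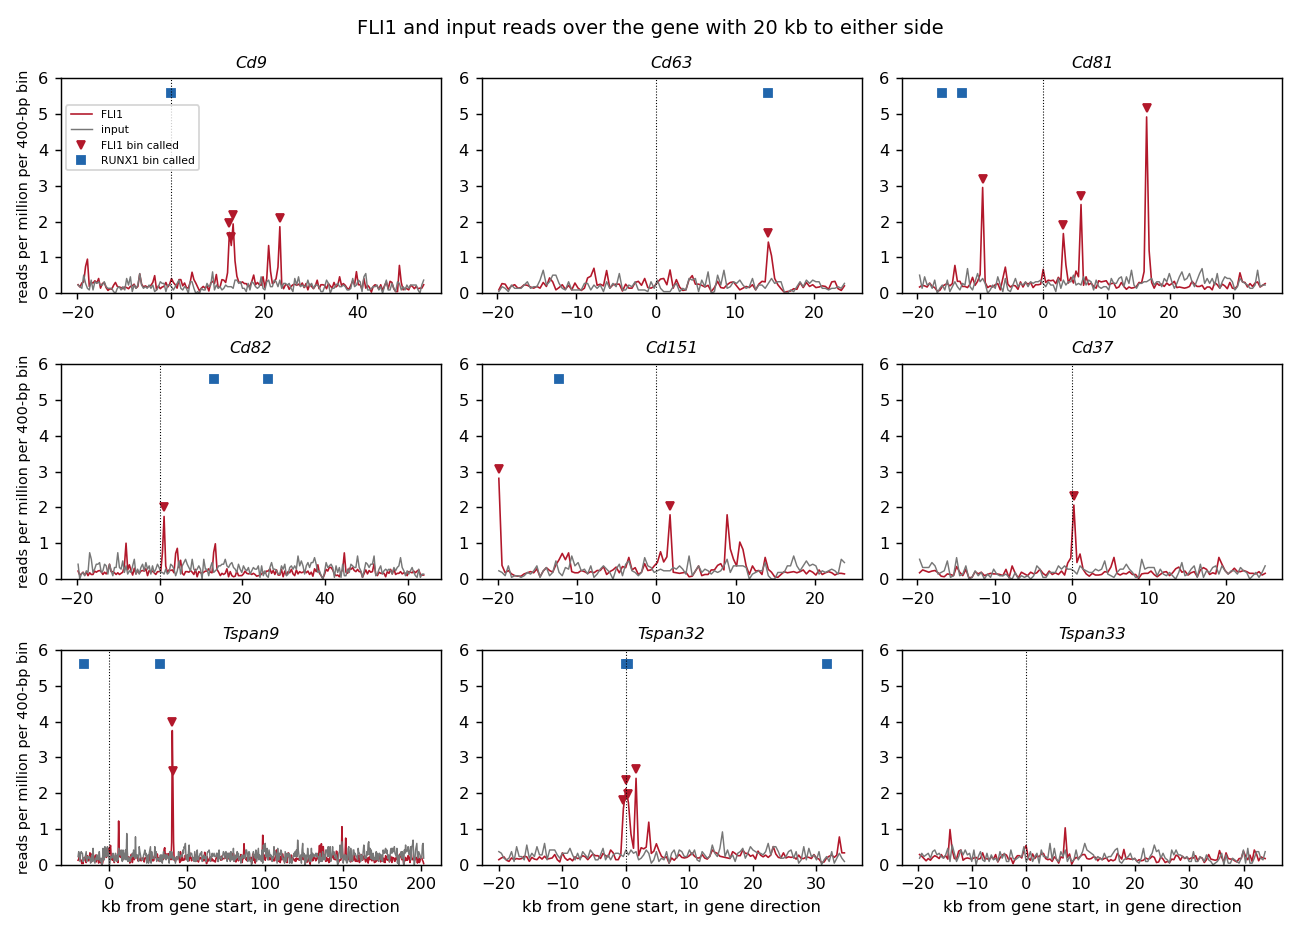
Reads (rpm) per 400-bp bin for FLI1 and input along each gene with 20 kb to either side, against the distance from the gene start in kb, with triangles above called FLI1 bins and squares at the top of each panel at called RUNX1 bins. FLI1 stands at the start in Tspan32 and Cd37, in introns in Cd9, Cd81 and Tspan9, and 14 kb past the start in Cd63, while Tspan33 holds no called bin.

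Joined where they adjoined, the 19 bins formed 14 FLI1 regions, of which the one beside Rplp2 also took in 1 called bin just outside the territory of Cd151. Of these, 5 lay within 2 kb of an annotated start of the gene itself, 5 in its introns beyond that, 3 at the start of another gene and 1 between genes. The tallest inside one of the 9 genes was in an intron of Tspan9, 40791 bp from the start and 19321 bp from the nearest annotated start. Its best bin held 236 FLI1, 3 RUNX1 and 6 input reads, 13.6-fold over the reference, and the window printed above has CAGGAAA in a pair of copies, 25 bp before and 9 bp after the summit. Of the FLI1 reads in that bin, 117 were on the plus and 119 on the minus strand.

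All called FLI1 bins of Cd9 lay in introns. The bins of a broad region around 13567 bp from the start held 122, 84 and 107 FLI1 reads beside 3, 4 and 4 input reads, and a single bin at 23281 bp held 117 reads beside 8. The folds over the reference were 9.13 and 5.05 for the best bins. Neither summit window held the ETS, RUNX, NF-E2 or GATA letters searched. Both do hold GGAA on one strand or the other, a core that was not searched alone.

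Cd81 had 3 FLI1 regions of its own. The best bins held 186 reads at 9777 bp before the start, 105 reads at 3295 bp and 156 reads at 5829 bp after it, beside 9, 8 and 5 input reads, and they stood 7.14-fold, 4.53-fold and 8.15-fold over the reference. All 3 windows held ETS letters, the intergenic one 3 times and with a TGTGGT 17 bp past the summit. RUNX1 had 2, 0 and 1 reads in the same bins, so the RUNX letters in the intergenic window were not matched by a RUNX1 call. A further region in this territory, with 310 FLI1 and 7 input reads (15.3-fold), lay 161 bp from the start of Tssc4, the next gene downstream, and cannot be assigned to Cd81 by position.

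At Tspan32, 3 adjoining bins around the start held 98, 134 and 109 FLI1 reads beside 5, 9 and 6 input reads. An intronic bin at 1508 bp held 152 reads beside 8, with its summit 626 bp from another annotated start of the gene. The highest fold of the gene was 6.56, in the intronic bin. Both windows held ETS letters, 7 and 4 bp past the summit, and GATA letters as well. Over the start, 2 of the bins were also called for RUNX1.

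Cd151, Cd82 and Cd37 each had 1 region near an internal or neighbouring start of their own. The Cd151 bin held 113 FLI1, 4 RUNX1 and 5 input reads (6.27-fold), with its summit 285 bp from an internal start, and the CAGGAAG 5 bp past the summit ran directly into TGACTCA, the only NF-E2 core among the 14 windows. The Cd82 bin held 110 FLI1 reads beside 3 input reads (6.77-fold), 102 bp from an internal start. The Cd37 bin held 130 FLI1 reads beside 5 input reads (7.998-fold), 17 bp from an annotated start and in a UTR. Neither the Cd82 nor the Cd37 window held any of the letters searched.

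In the territory of Cd63 the only FLI1 region was 14178 bp past its start and 209 bp from the start of Rdh5, inside an intron of Bloc1s1. It held 90 FLI1, 7 RUNX1 and 6 input reads and was called for both factors. The second region in the territory of Cd151, with 177 FLI1 and 5 input reads (12.2-fold), was 139 bp from the start of Rplp2, which encodes a ribosomal protein. Without bins near protein-coding starts of other genes, Cd63 therefore had no called bin.

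Near the threshold, the closest bins inside were in Cd81 at 4.53-fold (105 FLI1, 8 input reads), Cd9 at 5.05-fold and Tspan32 at 5.14-fold, and the closest outside were in Cd9 at -17791 bp, 3.96-fold (60 and 3 reads), Cd63 at 3.76-fold (41 and 1 reads) and Tspan32 at 3.70-fold (75 and 7 reads). Tspan33 had its highest fold at -14022 bp from the start, 3.44-fold with 62 FLI1, 2 RUNX1 and 2 input reads, and its most FLI1 reads 7178 bp into the gene, at 2.50-fold with 65, 3 and 9 reads. It gained 1 called bin when the threshold was 3-fold or the bins started 200 bp later. Some tall FLI1 bins were not called because the input was also high there, such as one 8939 bp past the start of Cd151 at 1.80 rpm of FLI1 and 0.552 rpm of input, near the starts of Polr2l and of Tspan4, another tetraspanin gene.

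RUNX1 formed 10 regions in these territories, 2 at own starts, 2 at starts of other genes, 3 in introns and 3 between genes. Their best bins held 5 to 7 reads, on both strands in every region. The region at the start of Tspan32 had 7 and 6 reads in its 2 bins beside 9 and 6 input reads, 4.26-fold and 5.14-fold over the reference. Its summit was 17 bp before the start, and 29 bases beside it, shown because they hold the RUNX letters, read:
Tspan32 RUNX1, chr7:150190899-150190927: cccactggggaACCACAgaagggaggaga
The capitals are TGTGGT on the opposite strand. At Cd9, 258 bp past the start, 5 RUNX1 reads stood beside 4 input and 26 FLI1 reads (6.03-fold), in a bin that was not called for FLI1. An intronic bin of Cd82, 13221 bp in, held 6 RUNX1 and 4 input reads (4.64-fold), with TGTGGT 9 bp past the summit.

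The further RUNX1 regions lay between genes before Cd81 (5 and 6 reads) and before Tspan9 (5 reads), in introns of Tspan9 and Cd82 (5 reads each), at the start of Pnpla2 in the territory of Cd151 (5 reads) and at the start of Rdh5 as given above. In those before Cd81 and Tspan9, the same bins had 11 or 12 FLI1 reads, about the mean of the library. Of the 11 RUNX1 bins, 8 were thus outside FLI1 bins, beside 9940 of 11914 over the territories of all protein-coding genes. This does not set the tetraspanin genes apart. Most of the 8 bins had 5 reads, where 1 read fewer ends the call.

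Because single RUNX1 bins are thin, RUNX1 reads were also summed over the FLI1 bins. The 19 FLI1 bins held 53 RUNX1 reads, 2.79 per bin (exact Poisson 95% interval 2.09 to 3.65), and the other 1681 bins held 1431, or 0.851 per bin (0.808 to 0.897). The RUNX1 rate was therefore 3.28 times higher in FLI1 bins (2.44 to 4.31). Input, counted in the same bins, was 5.74 and 5.52 per bin, a ratio of 1.04 (0.853 to 1.26). High input in a bin works against an FLI1 call, so the input ratio is in part set by the calling rule. Over the territories of all protein-coding genes the ratios were 3.40 (3.37 to 3.43) for RUNX1 and 0.961 for input, so the tetraspanin genes did not stand apart from other genes in this respect. Input itself was denser in the 1681 bins, at 5.52 reads per bin, than in the other bins of all gene territories, at 4.03, and the part of this in the calls was not tested.

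RUNX1 reads at the FLI1 summits were few and differed among the regions. Within 200 bp of the 14 FLI1 summits, RUNX1 had 9 reads at the start of Tspan32, 7 at the region beside Rdh5, 5 at the intron of Cd151, 4 at the start of Tssc4, and 0 to 3 at the other 10. FLI1 had 88 to 327 reads in the same windows, with a median of 150, and input had 3 to 11. Without Tspan32 the ratio of RUNX1 rates was 2.81 (1.96 to 3.92), and without Tspan32 and Cd63 it was 2.46 (1.64 to 3.55). Both intervals overlap that of all 9 genes (2.44 to 4.31), so the drop is not resolved. With all bins near any annotated start left out, FLI1 bins and other bins alike, the ratio was 1.94 (1.03 to 3.34).

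**Figure D3:**
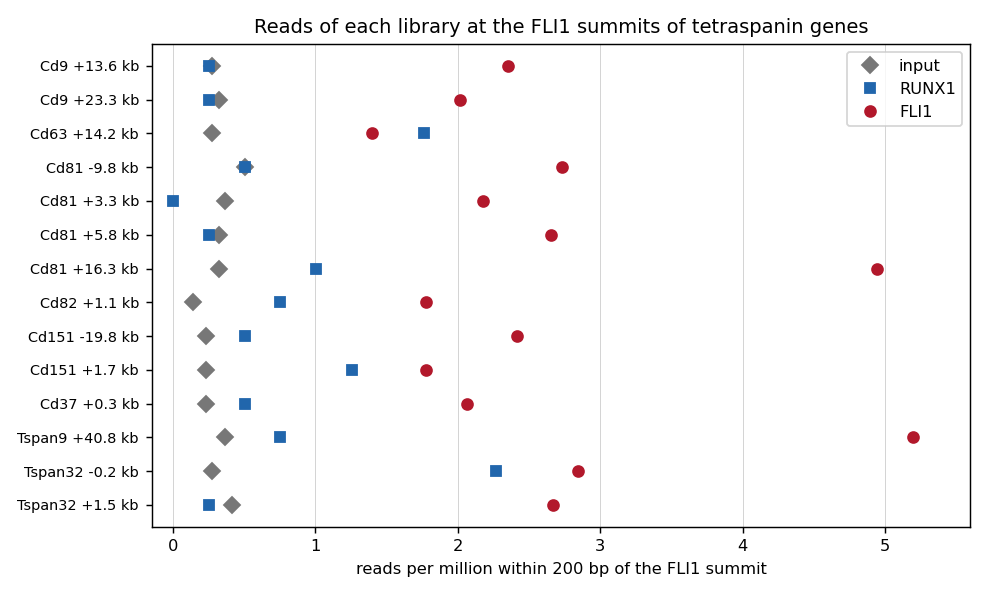
Reads (rpm) of each library within 200 bp of the 14 FLI1 summits, which are named by gene and distance from its start in kb. FLI1 is above input at every summit by the way summits were chosen, while RUNX1 ranges from 0 at Cd81 +3.3 kb to 2.27 at the start of Tspan32.

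**Figure D4:**
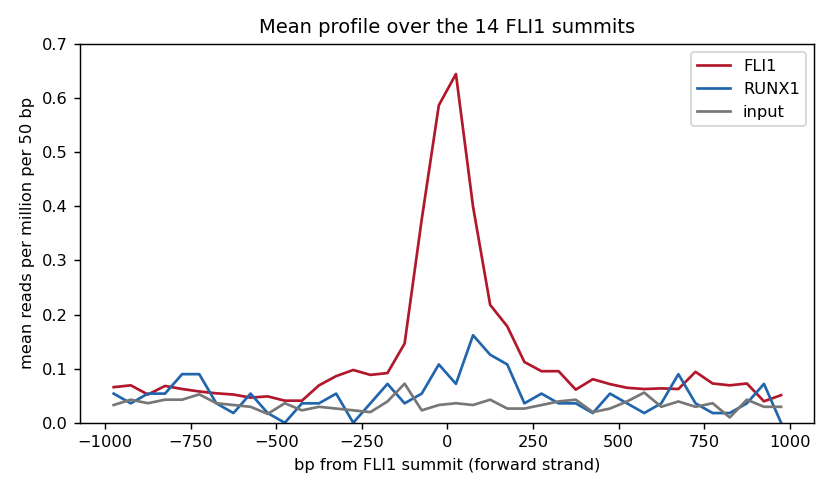
Mean rpm per 50 bp around the 14 FLI1 summits, against the distance from the summit in bp. FLI1 rises to 0.645 in the step 25 bp past the summit, and input stays at or below 0.0723. RUNX1 is highest at 0.162 in the step at 75 bp. Its curve rests on 41 reads within 200 bp of the summits and also reaches 0.0899 at 725 and 775 bp before the summit.

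ETS letters were in 10 of the 14 FLI1 summit windows, 71.4% (exact 95% interval 41.9 to 91.6). The share was 59.7% over all 15738 FLI1 regions of the genome and 7.85% in equally wide windows set 500 bp away from them on both sides. Those without were both Cd9 windows, Cd82 and Cd37. RUNX letters were in 1 of 14 (7.14%), beside 18.2% of all FLI1 regions and 8.22% of the flanking windows, NF-E2 letters in 1 of 14, beside 4.72% and 1.63%, and GATA letters in 3 of 14 (21.4%), beside 13.8% and 8.38%. With 14 windows, none of these shares could be told from that of all FLI1 regions, and a match of letters does not show a bound site. Nor does a lack of these letters show that no ETS site is there, since other forms around GGAA were not searched.

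The promoter windows of the 9 genes in RefSeq, built on GRCm38.p6 and all of 1 length, were searched for the same letters by gene name, with no coordinates carried over. These genes have 16 promoter windows in all. ETS letters were in 4 of 16 windows, of Cd82, Cd9, Tspan32 and Tspan33, beside 30.9% of all promoter windows. RUNX letters were in 4 of 16, of Cd82, Tspan32 and Tspan9, beside 22.4%, GATA letters in 2 of 16, of Tspan32 and Tspan9, beside 18.6%, and NF-E2 letters in 0 of 16, beside 5.20%. Tspan33 and Cd9 had ETS letters in a promoter window and FLI1 ratios of 1.12 and 1.17 within 2 kb of the start. In Tspan33 the 500 bp before the start held the most FLI1 reads of its 500-bp steps, 53 beside 12 input reads. Cd82 and Tspan32 had such letters and FLI1 bins near a start, and Cd37 and Cd151 had such bins without the letters. The Cd151 bin lay 1712 bp into the gene, and its summit window held CAGGAAG. Without carried coordinates, the promoter windows are not shown to cover any of these bins.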

How the data were processed

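The authors deposited aligned read positions (start, end and strand), mapped to mm9 with Bowtie per their methods. FLI1 and RUNX1 reads were 50 bp with no position repeated, and input reads were 34 bp with 3.24% repeated. The submitters' processing notes also name MACS 1.4 and SICER 1.1, whose peaks were not used. The labels and methods differ on the age of the livers and on how the input chromatin was cut, and the aligner of the input reads is not given in the sources used here. The labels also list CD41, a megakaryocyte antigen, among the depleting antibodies, where the methods do not. From the deposited positions, duplicate positions were collapsed by strand and the reads moved 75 bp towards their 3′ end, then counted around gene records of GENCODE vM1 on NCBIM37 (the mm9 sequence). Depth scaling used all reads outside chromosome M. Summits used reads extended to 150 bp. Python 3.11.15, numpy 2.4.6, scipy 1.17.1, pandas 2.3.3, pysam 0.24.0 and matplotlib 3.10.9 were used, and the counting was tested on simulated data. With 1 library per antibody no test was run. The lymphoid marker list is not reported here. All 9 genes are named. Of other tetraspanins and partners, those called for both factors and the 3 with the highest FLI1 ratio are named, and of neighbours, those with a start within 2 kb of a called bin. Tspan14 and Cd53, as the calls among the other tetraspanins, fall under that rule, while Itgb3, Igsf8, Polr2l and Tspan4 were named after their values were seen. The genes and lists were chosen with earlier results of these data known. Alternatives changed the window, the read shift, the reference, repeated input reads, the choice of start, the depth of FLI1, the thresholds and the bin grid.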

Additional observations from a re-analysis of the deposited data

How the results depend on the processing

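No library could be left out, since there was 1 per antibody. RUNX1 had the fewest reads, and the part of depth in the RUNX1 counts was not tested. Of the alternative values for the main results 38 stayed within 1.5 times or the interval and 24 did not, and of those for single genes 97 stayed within the counting interval of the reported value and 20 did not. That interval is wide for RUNX1, whose ratio at Cd9 was 1.37 against 2.59 with 1 kb windows and at Tspan32 1.77 against 2.81, both then past 2-fold. Ratios near input crossed it, such as FLI1 at Tspan9 (1.28 against 0.927 over all annotated starts and 1.58 with 1 kb windows) and Tspan33 (1.12 against 0.934 with 5 kb windows and 0.631 with FLI1 thinned), and RUNX1 at Tspan9 (0.796 against 1.31 with 1 kb windows) and Cd151 (1.28 against 0.787 with 5 kb windows). The causes were not tested unless the setting itself asks for more or fewer reads. Shares of all genes and of all bins were computed for the reported setting only. The counts under other settings below therefore have no background share and show no enrichment. Genes with FLI1 called at the start numbered 2, against 1 with 5 kb windows, 4 without input, 5 with FLI1 thinned to the RUNX1 depth, 5 at 1.5-fold and 1 at 3-fold. With 1 kb windows the number was again 2, but they were Cd37 and Tspan32. Genes with RUNX1 called numbered 0, against 2 with 1 kb windows (Cd9 and Tspan32), 4 without input and 2 at 1.5-fold. FLI1 bins numbered 19, against 29 at 3-fold, 29 with bins started 200 bp later, 54 without input and 31 with FLI1 thinned. RUNX1 bins numbered 11, against 3 at 6-fold, 26 with no minimum of reads, 0 with at least 10 reads, 17 without input, 6 with 10 kb to either side and 7 with reads not moved. Bins with both numbered 3, against 0 at 6-fold, 0 with at least 10 reads, 5 with bins started 200 bp later and 5 without input. The ratio of RUNX1 rates was 3.28, against 2.41 (1.58 to 3.51) at 6-fold and 1.94 with all bins near any annotated start left out. Leaving out Tspan32, Cd63 or bins near starts of other genes was chosen after seeing the data, and without the latter the ratio was 2.96. ETS letters were in 11 of 14 windows of 100 bp to either side, beside 67.6% of all FLI1 regions at that width. At 6-fold they were in 7 of 10, for which no such share was computed. The FLI1 ratio of Tspan32 was between 2.11 (1.76 to 2.55, over all annotated starts) and 5.89 (without input).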
